A study of Mus musculus with 29 samples.

Results

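The genes described here encode the proteins of the cytosolic ribosome. They were chosen by symbol, as the protein-coding genes whose mouse symbol starts with Rpl or Rps followed by a digit, p0 to p2 or a, leaving out the Rps6k kinases. This gave 92 of the 48709 gene identifiers in each count table. Of these, 77 are the canonical ribosomal protein genes, with 31 of the small subunit, 43 of the large subunit and 3 of the stalk. The other 15 are 7 paralogues (Rpl10l, Rpl22l1, Rpl36al, Rpl39l, Rpl3l, Rps27l and Rps27rt), 6 protein-coding entries whose symbol carries the suffix -ps, and Rpl7l1 and Rps19bp1. A further 276 rows follow the same pattern of symbols but are annotated with other biotypes, mostly pseudogenes, and are not counted as members.

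Bulk polyA RNA-seq was available for 29 mouse libraries in 3 experiments, each of which compared an LNA inhibitor of miR-99b-5p (anti-miR-99b) with a scrambled oligonucleotide (sc-control). For the PFC experiment, prefrontal cortex of male C57BL/6J mice aged 3 months was taken 5 days after stereotaxic injection of the oligonucleotide in lipid nanoparticles (3 anti-miR-99b and 3 sc-control mice). For the microglia experiment, primary microglia of CD1 pups at postnatal day 1 were treated in culture (4 and 4 libraries). For the co-culture experiment, CD1 microglia, also from postnatal day 1, were treated for 48 h, moved onto cortical neurons of CD1 embryos at embryonic day 17.5 and kept with them for 48 h before the whole culture was lysed (7 anti-miR-99b and 8 sc-control libraries). The labels name no transgene or deletion, so all groups are wild type as far as they say. Where the sources do not say that libraries of a group came from separate cultures, p-values measure only the spread between these libraries, which may be technical.

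The libraries held 21324156 to 37901110 counted reads. Microglia libraries carried all 10 microglial markers over 1 CPM (counts scaled by library size), and the PFC and co-culture libraries all 10 neuronal markers. In co-culture 8 of the 10 microglial markers exceeded 1 CPM, and Tmem119 and P2ry12 stayed under it. This cut does not separate cell types. In microglia sc-control libraries 9 of 10 neuronal, 8 of 8 astrocyte and 8 of 8 oligodendrocyte markers passed it too. Their summed means there were 141, 285 and 271 CPM, against 11422 CPM for the microglial markers. In co-culture all 8 astrocyte markers passed, with a summed mean of 2377 CPM in sc-control, against 8220 CPM for the neuronal markers. In every bulk sample, a change in the make-up of the cells and a change in RNA per cell cannot be told apart.

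The ribosome joins a small subunit, which decodes the messenger RNA, to a large subunit, which forms the peptide bond. The acidic stalk of the large subunit (Rplp0, Rplp1 and Rplp2) recruits the elongation factors. Ribosomal protein mRNAs are short, very abundant and typically begin with a tract of pyrimidines behind a C, the 5' TOP motif, through which mTOR signalling sets their translation. The family is also known for its many processed pseudogenes, copies of the mRNA pasted into the genome, so that a short read can match several places.

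Start sequences are shown because the TOP tract is a known feature of this family that the choice by symbol did not use. RefSeq gave a start for 66 members in mouse build GRCm38.p6. A tract of C and at least 4 further pyrimidines began exactly at the start in 13 of the 66 (19.7%), against 2.17% of 17491 protein-coding genes, so most members did not show it at the annotated start. Within 5 bases of the start it was found in 34.8% of members and 13.6% of all genes. Each line runs from 10 bases before the start to 20 bases into the transcript, 5' to 3', with the tract in capitals.
Rps6 (chr4:86857348-86857377, minus strand): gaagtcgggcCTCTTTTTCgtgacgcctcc
Rps10 (chr17:27635225-27635254, minus strand): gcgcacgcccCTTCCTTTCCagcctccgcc
Rps27 (chr3:90213629-90213658, minus strand): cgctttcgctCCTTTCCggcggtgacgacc
Rps27rt (chr9:114982720-114982749, minus strand): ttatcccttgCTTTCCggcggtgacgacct
Rpl15 (chr14:18270967-18270996, minus strand): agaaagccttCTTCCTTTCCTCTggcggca
Rpl34 (chr3:130730379-130730408, minus strand): tccctgacgtaCTTCCTgtccggcgccgtc
Rpl35 (chr2:39005112-39005141, minus strand): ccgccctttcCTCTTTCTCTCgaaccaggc
Rplp2 (chr7:141447641-141447670, plus strand): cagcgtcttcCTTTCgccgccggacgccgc
In Rpl34 the tract lay 1 base into the transcript. In Rps27 and its retrotransposed copy Rps27rt it was followed by the same bases, and 296 of the 325 windows of 50 bases in Rps27rt also occur in Rps27.

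The inhibitor is directed at miR-99b-5p, which shares its seed (bases 2 to 8, in capitals) with miR-99a-5p and miR-100-5p. The mature sequences are those of RefSeq.
miR-99b-5p (chr17:17830194-17830215, plus strand): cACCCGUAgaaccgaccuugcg
miR-99a-5p: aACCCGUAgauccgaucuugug
miR-100-5p: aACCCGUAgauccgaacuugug
The DNA letters complementary to this seed, TACGGGT, were found in the 3' UTR of 0 of 90 members and of 209 of 20535 protein-coding genes (1.018%). Ribosomal protein mRNAs have short 3' UTRs, with a median of 89 bases against 852 bases over all those genes. The letters are simply not in these windows.

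The family took a small part of each library, and this part differed between the experiments. In the PFC, the 92 genes together held 0.260%, 0.271% and 0.272% of the counts in the 3 sc-control mice and 0.271%, 0.282% and 0.294% in the 3 anti-miR-99b mice. The means were 0.267% ± 0.00678 and 0.282% ± 0.0117 (SD, n = 3 each), a ratio of 1.06. Treated mice lay at the upper end, with 2 of 3 above the highest sc-control mouse. In microglia the share was 0.816% ± 0.0348 in sc-control and 0.818% ± 0.0122 in anti-miR-99b libraries (n = 4 each), and no treated library lay above the highest control.

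In co-culture the share ran from 0.378% over a median of 0.390% to 0.406% in the 8 sc-control libraries, and from 0.392% over a median of 0.407% to 0.414% in the 7 anti-miR-99b libraries. The groups overlapped, with 4 of 7 treated libraries above the highest control. The means were 0.391% ± 0.00958 and 0.407% ± 0.00750, a ratio of 1.04. The share is a sum over the members and was not tested. Libraries were sequenced on several lanes, and the difference of means had the same direction on each lane in PFC (0.0167 and 0.0112 percentage points) and in co-culture (0.0130, 0.0166, 0.00605 and 0.0190 percentage points), whereas in microglia it was -0.0167 on lane 5 and 0.0199 on lane 6. Lane 7 in PFC and lane 6 in co-culture held only 1 library of each arm. Lane 5 in co-culture held 1 treated library (0.4051%) and 3 controls, of which replicate 5 (0.4056%) lay above it.

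**Figure D1:**
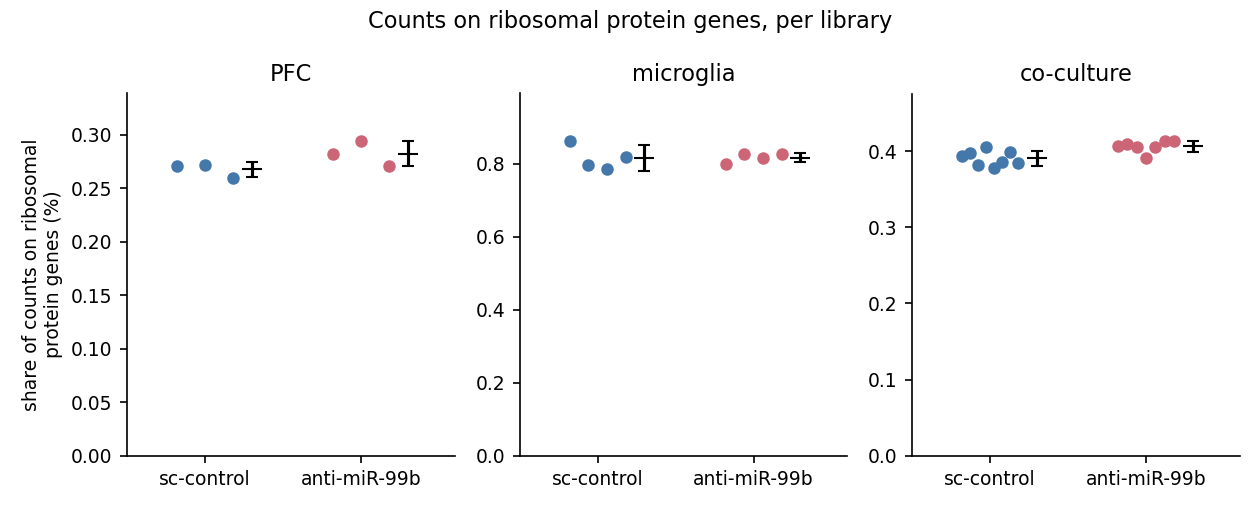
Share of all counts on the 92 ribosomal protein genes (percent, vertical axis) in each library (points), by treatment, in the 3 experiments. Black bars give mean ± SD; in co-culture 4 of 7 treated libraries lay above the highest sc-control library, and in microglia none did.

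The summed level of the 10 microglial markers moved in the same direction as this share. It was 94.6 to 121 CPM in sc-control and 119 to 133 CPM in anti-miR-99b co-cultures, and 440 to 577 CPM in sc-control and 560 to 618 CPM in anti-miR-99b PFC. The groups overlapped in both. In the microglia libraries it was 11228 to 11705 CPM. The 5 fibroblast markers (Col1a1, Col1a2, Col3a1, Dcn and Lum) were all over 1 CPM in PFC and summed to 68.95 to 86.0 CPM in sc-control and 88.3 to 90.6 CPM in anti-miR-99b mice, so that all treated mice lay above all controls. They overlapped between treatments in microglia (39.2 to 69.1 and 52.1 to 79.1 CPM) and in co-culture (17.8 to 23.9 and 17.3 to 23.5 CPM), and the summed neuronal, astrocyte, oligodendrocyte, and endothelial and blood markers overlapped in all 3 experiments. The part of the markers in the family's difference was not tested.

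Levels differed widely between members. They are compared here per kilobase of transcript, as CPM per kb averaged over sc-control libraries. Over the 77 canonical genes, in PFC they ran from 0.804 for Rpl17, a protein at the exit tunnel, to 226 for the stalk protein Rplp1, a 280-fold range. In microglia the lowest was 0.487 (Rpl29) and Rplp1 was at 781, and in co-culture they ran from 0.971 (Rpsa) to 369 (Rplp1). Rplp1, Rpl8, Rpl4 and Rps15 were among the 5 highest in each experiment. The paralogues, given further below, are not in these ranges. Rpl4, whose product lines the exit tunnel, alone held 12.9% of the family's counts in PFC, 11.5% in microglia and 11.3% in co-culture. The 5 members with the most counts in a library together held 40.4% to 42.9% of the family in PFC and 36.9% to 37.6% in co-culture.

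These levels followed how much of a transcript is unique. Each transcript was cut into windows of 50 bases, the length of the reads. A window was called unique when no transcript of another annotated gene held it, on either strand. The paralogue Rpl39l was unique throughout (100%), Rpl4 at 83.5%, Rpl3 at 14.4%, and Rps27 at 1.35%. Over the 77 canonical genes, the Spearman correlation of uniqueness with level per kb was 0.51 in PFC, 0.50 in microglia and 0.53 in co-culture. Genes are not independent replicates and these levels come from the same libraries, so no p is given. The 20 genes with up to 25% of unique windows had a median of 4.40 CPM per kb in PFC, 9.01 in microglia and 7.19 in co-culture. The 9 genes with over 75% had medians of 39.0, 90.6 and 82.2. Divided by the number of unique windows in place of the length, level and uniqueness had correlations of -0.02, 0.15 and 0.06. Both quantities then contain the number of unique windows, which by construction tends to lower their correlation. The part of uniqueness in the levels was not tested. The comparisons that follow hold each gene against itself.

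**Figure D2:**
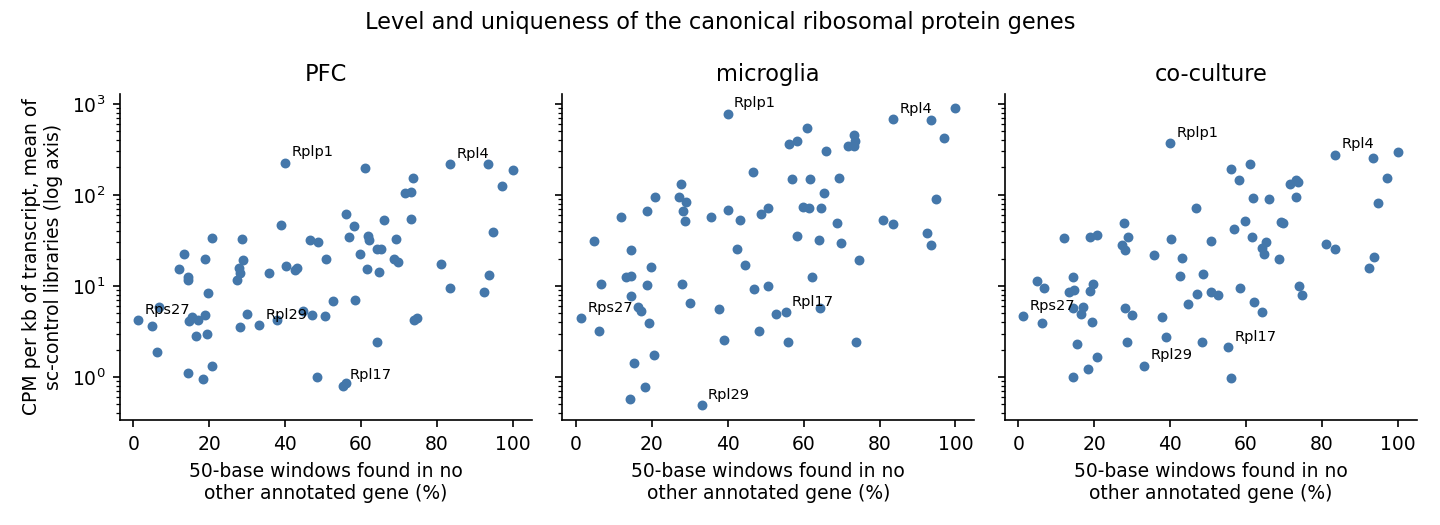
Level of the 77 canonical genes (CPM per kb of transcript, mean of sc-control libraries, log axis) against the percentage of their 50-base windows found in no other annotated gene. Genes with up to 25% of unique windows had medians of 4.40, 9.01 and 7.19 CPM per kb, and those over 75% had 39.0, 90.6 and 82.2.

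The effect of miR-99b-5p inhibition was asked gene by gene within each experiment, by edgeR's quasi-likelihood test over all genes with Benjamini-Hochberg adjustment. In PFC, 83 of the 92 members passed the filter on low counts and 0 were called at an adjusted p under 0.1 and a log2 fold change beyond 0.2, where 15 of 17364 genes were called (0.0864%). At an unadjusted p under 0.05 there were 5 members, all higher (among them Rps25, Rplp0, Rps24 and Rps9), where 7.64% of all genes had such a p (5.17% higher and 2.47% lower). DESeq2 also called 0 members. Of the 83 members, 48 were higher (57.8%, against 50.6% of all genes) and 35 lower, and their median log2 fold change was 0.03 against 0.0025 for all genes tested.

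Rps25, a protein of the small subunit head, was at 15.1, 15.81 and 15.82 CPM in sc-control and at 17.1, 18.09 and 18.13 CPM in anti-miR-99b PFC. The groups did not overlap, with all treated mice above all controls, but the log2 fold change of 0.19 (SE 0.079) did not pass after adjustment (edgeR adjusted p = 0.649). Rplp0, the base of the stalk, was at 63.3, 64.5 and 65.4 CPM in controls and at 67.1, 73.9 and 75.2 CPM after inhibition. Its groups were also apart, at a log2 fold change of 0.16 (SE 0.069, edgeR adjusted p = 0.649). Non-overlap was seen for 6 members in the higher and 4 in the lower direction, where 13.3% of all genes had groups apart (7.52% higher and 5.81% lower). Rps23, a protein of the decoding centre, had the lowest log2 fold change of the members tested, -0.50 (SE 0.24, edgeR adjusted p = 0.66) on as few as 14 reads. The paralogue Rpl22l1, on at least 251 reads, had groups apart in the lower direction, with a log2 fold change of -0.24 (SE 0.13, edgeR adjusted p = 0.671). Rpl34 was at 20.7 to 21.4 CPM in controls and 18.7 to 21.4 CPM in treated mice, with overlapping groups and a log2 fold change of -0.04 (SE 0.081).

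In microglia, 84 members were tested and 0 were called at an adjusted p under 0.1 and a log2 fold change beyond 0.1, where 73 of 14953 genes were called (0.488%, of which 0.435% higher and 0.0535% lower). Members stood on both sides, with 40 higher (47.6%, against 51.6% of all genes) and 44 lower and a median of -0.0059. An unadjusted p under 0.05 was reached by 2 higher and 3 lower members, where 6.45% of all genes had one (3.4% higher and 3.04% lower). DESeq2 also called 0 members. Rplp2, a stalk protein, was at 124, 131, 132 and 138 CPM in sc-control and at 139, 140, 142 and 147 CPM in anti-miR-99b cultures. All treated cultures lay above all controls, narrowly, and the log2 fold change was 0.11 (SE 0.032, edgeR adjusted p = 0.271). In Rps18, of the head of the small subunit, the groups were apart in the other direction, at 6.11, 6.27, 6.41 and 6.46 CPM against 5.04, 5.30, 5.90 and 5.97 CPM. Its log2 fold change was -0.18 (SE 0.082, edgeR adjusted p = 0.734). Groups were apart for 2 members higher and 2 lower, beside 3.44% of all genes (1.65% higher and 1.8% lower). Sc-control replicate 2 had the highest share of the family in its group (0.864%, the other controls 0.785% to 0.819%), and without it 3 members were called: Rplp2 (log2 fold change 0.11, edgeR adjusted p = 0.0616), Rpl14 (0.14, 0.0488) and Rpl10a (-0.15, 0.0587). In that fit 409 of 15139 genes were called (2.7%).

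In co-culture most members were above 0 and few passed the test. Of 84 tested, 71 were higher and 13 lower in anti-miR-99b libraries (84.5% higher, against 51.6% of all genes), with a median log2 fold change of 0.05 against 0.0025 for all genes. This held for 27 of 31 small subunit genes, 35 of 43 large subunit genes, 3 of 3 stalk genes and 4 of the 4 paralogues tested. An unadjusted p under 0.05 was reached by 16 members, all in the higher direction, where 6.4% of all genes had one in that direction and 6.81% in the lower (13.2% in either). At the threshold of an adjusted p under 0.05 and a log2 fold change beyond 0.1, 1 member was called, Rpl34, beside 227 of 16193 genes (1.4%, of which 0.846% higher and 0.556% lower). No member had groups without overlap, where 0.58% of all genes did (0.303% higher and 0.278% lower).

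Rpl34, a protein of the outer large subunit whose start sequence is given above, was at 4.07 CPM at the lowest, 4.30 at the median and 4.80 at the highest in sc-control co-cultures. After inhibition it was at 4.61, 5.08 and 5.78 CPM. The lowest treated library lay below the highest control library, so the groups overlapped slightly. The log2 fold change was 0.24 (SE 0.062, edgeR adjusted p = 0.0443), on at least 103 reads a library. The call was lost with DESeq2 (adjusted p = 0.0633), with the family's total as library size (0.056) and without a filter on low counts (0.0862). The lane as a block (0.109), removal of the trend over gene length (0.102) and added pseudogene copies (0.0801) also lost it. So did the replicate number as a block (edgeR adjusted p = 0.551), but that fit kept only the 4 numbers present in both arms. The call was also lost on leaving out any of 12 of the 15 libraries, with adjusted p-values from 0.0526 to 0.0913.

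Rps3, a protein at the mRNA entry site of the small subunit, was at 290 to 312 CPM in controls (median 302) and 310 to 326 CPM in treated libraries (median 317). The lowest treated library lay below the highest control, and its adjusted p was 0.0408, but its log2 fold change of 0.08 (SE 0.020) stayed under the limit of 0.1. Rpl23, a large subunit protein that also binds Mdm2, was at 30.3 to 36.8 CPM (median 32.96) in controls and 34.02 to 40.2 CPM (median 37.4) after inhibition, with a log2 fold change of 0.15 (SE 0.041, edgeR adjusted p = 0.0598). It was called with DESeq2 (adjusted p = 0.028). EdgeR called it with upper-quartile factors (adjusted p = 0.0465), without the filter on low counts (0.0171), with a RUVs factor (0.005) and without some single libraries. Over all alternatives the adjusted p of Rpl23 ran from 0.005 to 0.908. Rpl4 (log2 fold change 0.07), Rps27l (0.14), Rpl22 (0.07) and Rps25 (0.10) were also higher, with edgeR adjusted p-values from 0.0826 to 0.18. On the lower side Rpl23a had a log2 fold change of -0.15 (SE 0.22) on as few as 5 reads and Rpl28 of -0.09 (SE 0.089), neither with an adjusted p under 0.7.

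**Figure D3:**
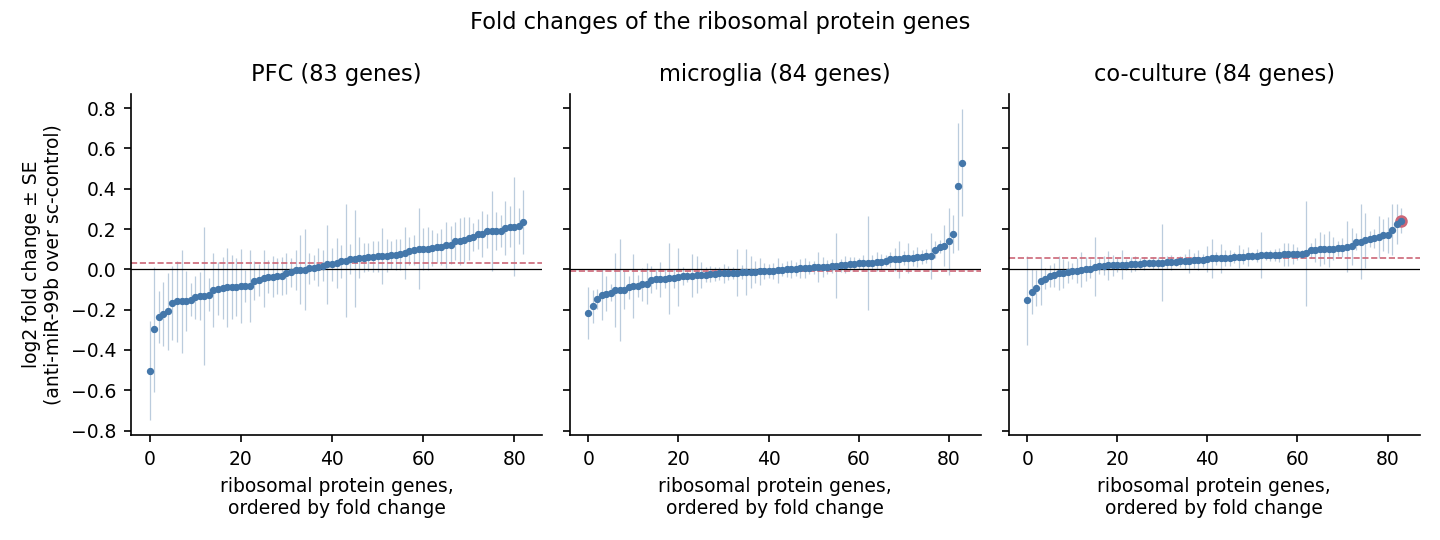
log2 fold change (anti-miR-99b over sc-control) with its SE for each ribosomal protein gene tested, ordered within each experiment; the dashed red line is the median of the members and the red point is called. The points straddle 0 in PFC and microglia, and 71 of 84 lie above 0 in co-culture, with Rpl34 the 1 gene called.

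Other short genes leaned the same way. Members tested in co-culture had a median exon length of 1754.5 bases, against 4240 bases for the other genes. Among those other genes, the median log2 fold change was 0.04 for up to 1 kb (63.8% higher), 0.03 for 1 to 2 kb (67.9% higher), 0.02 for 2 to 4 kb (61.4% higher) and -0.01 for over 4 kb (41% higher). The members' medians in the same classes were 0.08 (13 genes), 0.04 (35 genes), 0.04 (30 genes) and 0.07 (6 genes). With the trend over length removed, 62 of 84 members were above 0, all of them among the 71 above 0 before, at a median of 0.03. In PFC the other genes showed the same order of classes, from 0.05 to -0.01, with members at 0.07 (11 genes), 0.04 (36 genes), -0.01 (30 genes) and 0.04 (6 genes). In microglia no class of the other genes had a median beyond 0.0113. The part of gene length in the family's lean was not tested.

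**Figure D4:**
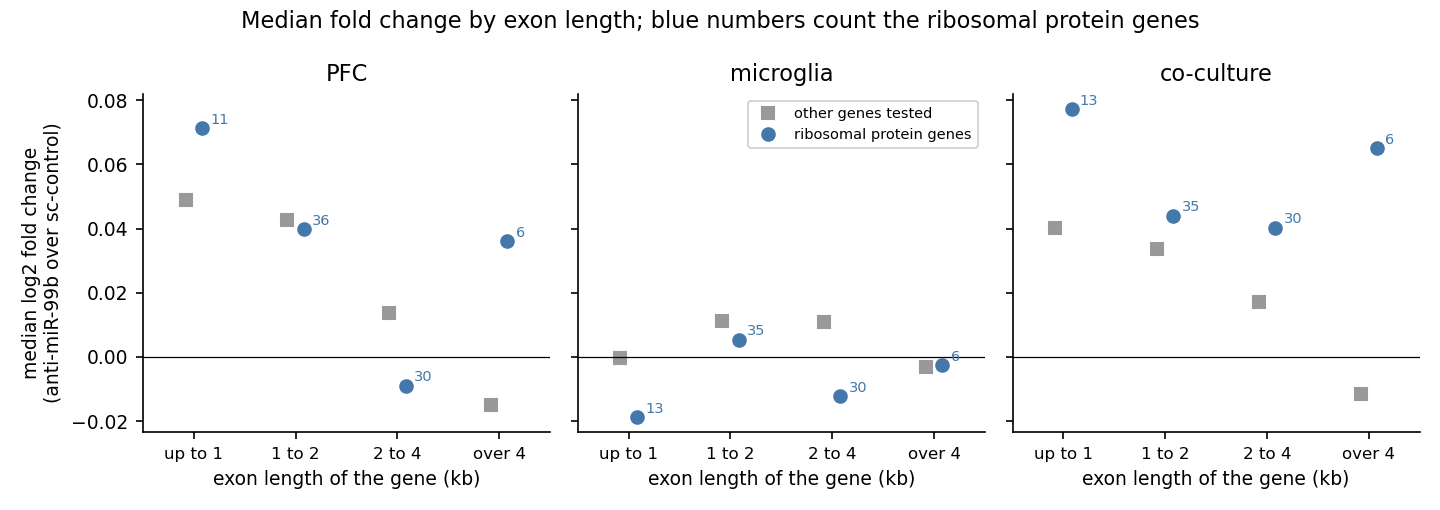
Median log2 fold change (anti-miR-99b over sc-control) of ribosomal protein genes (blue circles, with the number of genes) and of all other genes tested (grey squares), by exon length of the gene. In PFC and co-culture the medians of the other genes fall from 0.05 and 0.04 for the shortest class to -0.01 for the longest, and in microglia they stay within 0.0113 of 0.

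In 4 lists of genes around the ribosome and among other short genes, the direction was counted in the same way. Of 18 other genes with TOP mRNAs, among them the elongation factors Eef1a1 and Eef2, 17 were higher in co-culture (median log2 fold change 0.02), 14 in PFC (0.07) and 14 in microglia (0.03). Ribosome biogenesis factors, which process the rRNA and assemble the subunits, were higher for 18 of 26 in co-culture (0.01), 14 of 26 in PFC (0.0061) and 20 of 26 in microglia (0.02). Mitochondrial ribosomal protein genes, which are also short, were higher for 65 of 77 in co-culture (0.04), 37 of 77 in PFC (-0.00048) and 49 of 77 in microglia (0.02). Nuclear genes of oxidative phosphorylation were higher for 70 of 76 in co-culture (0.05), 33 of 78 in PFC (-0.0087) and 43 of 76 in microglia (0.0048). Across these lists and experiments, 1 gene was called, Atp5k, a subunit of the ATP synthase, in co-culture. In co-culture, most genes of each list were thus above 0, as the members were.

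A set of 15 members with known further roles held Rpl23, Rps3, Rpsa, Rps25 and the stalk genes among others. In co-culture 13 of the 15 were higher, in microglia 9 and in PFC 8, and 0 were called in each experiment. The interval of 2 SE to either side left out 0 for Rpl23, Rplp1, Rps25, Rps3 and Rpsa in co-culture, for Rplp2 in microglia and for Rplp0, Rplp1 and Rps25 in PFC. These are 5, 1 and 3 of 15. Over all genes tested, 13.2%, 6.45% and 7.64% had an unadjusted p under 0.05, a measure close to this one. Whether members with further roles differ from other genes was not tested. The values of 5 others of the set follow. Rpl5 and Rpl11, which with the 5S rRNA bind and inhibit Mdm2, had log2 fold changes of 0.0014 (SE 0.061) and 0.11 (SE 0.091) in co-culture, -0.03 (SE 0.092) and -0.10 (SE 0.095) in microglia, and -0.10 (SE 0.18) and 0.08 (SE 0.13) in PFC. Rps6, the substrate of S6 kinase, differed by 0.11 (SE 0.13) in co-culture, 0.14 (SE 0.17) in microglia and -0.09 (SE 0.16) in PFC. Rps19, mutated in Diamond-Blackfan anaemia, differed by -0.01 (SE 0.054), -0.03 (SE 0.039) and -0.08 (SE 0.08). Rpl38, needed for translation of a subset of Hox mRNAs, differed by 0.08 (SE 0.049), -0.08 (SE 0.055) and 0.12 (SE 0.11). For these 5 genes each interval of 2 SE to either side included 0, and the widest reached changes that these libraries could not resolve.

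Whether the effect of inhibition differed between experiments was tested in 1 model over all 29 libraries. In each of the 3 contrasts 0 of 86 members passed an adjusted p under 0.05, where 0.469%, 0.791% and 0.0844% of 18963 genes passed for microglia against PFC, co-culture against PFC and microglia against co-culture. An unadjusted p under 0.05 was reached by 4, 11 and 2 members, where 11.9%, 15% and 5.49% of all genes had one. DESeq2 called 1 member in co-culture against PFC and 0 in the other contrasts. The share of all genes that DESeq2 called is not reported here. For Rpl34 the effect in co-culture exceeded that in PFC by 0.27 on the log2 scale (SE 0.095, edgeR adjusted p = 0.156) and that in microglia by 0.27 (SE 0.10, edgeR adjusted p = 0.784), so the call in co-culture was not shown to be particular to it. The lowest adjusted p of a member was that of Rps15a in co-culture against PFC (difference 0.18, SE 0.058, edgeR adjusted p = 0.136). These contrasts share libraries and are not independent of each other.

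Sc-control libraries of the 3 experiments were then compared for the members' levels. Tissue, strain, age and experiment cannot be told apart here, since the PFC came from adult C57BL/6J mice and both cultures from perinatal CD1 animals. Of 86 members tested, 59 were higher and 6 lower in microglia than in PFC at an adjusted p under 0.05 and a log2 fold change beyond 1, with a median of 1.61 against -0.15 over all 18274 genes, of which 63.4% were called (26.4% higher), but with the family's own total as library size the median became -0.19 and the calls 8 higher and 24 lower (9.84% and 69.9% of all genes). In co-culture against PFC, 22 were higher and 8 lower at a median of 0.63 (35.4% of all genes called, 14.9% higher), and with the family's total the median was 0.08 with 6 higher and 10 lower (8.28% and 33% of all genes). In microglia against co-culture, 44 were higher and 2 lower at a median of 1.04 (59.5% of all genes called, 24.3% higher), and with the family's total the median was -0.21 with 2 higher and 23 lower (12.4% and 59.9% of all genes). The first scale compares the family with the rest of the transcriptome and the second compares each member with the family.

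The small subunit genes had medians of 1.71, 0.46 and 1.32 in these 3 contrasts, the large subunit genes 1.12, 0.66 and 0.90 and the stalk genes 2.196, 0.71 and 1.43. Other TOP genes were called higher in 15, 7 and 6 of 18. Ribosome biogenesis factors were called higher in 7, 3 and 3 of 26. Mitochondrial ribosomal protein genes were called in 3 higher and 1 lower, 1 lower, and 4 higher of 77, and oxidative phosphorylation genes in 2 higher and 7 lower, 1 higher and 4 lower, and 4 higher and 4 lower of 77. Of all genes, 26.4%, 14.9% and 24.3% were called higher and 37%, 20.5% and 35.2% lower in these contrasts. On the first scale, most cytosolic ribosomal protein and TOP genes were called higher in microglia than in PFC, and few mitochondrial ones were.

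Some members were higher in the cultures on both scales. Values that compare experiments are CPM scaled over all sc-control libraries together, and so differ slightly from those within an experiment. Rplp0 was at 60.7 to 62.4 CPM in PFC, 509 to 567 in microglia and 192 to 204 in co-culture. No library of one experiment overlapped another, and the log2 fold changes over PFC were 3.10 (SE 0.043) in microglia and 1.68 (SE 0.038) in co-culture, or 1.30 and 1.13 relative to the family. Rps4x, the X-linked small subunit gene, was at 15.2 CPM ± 0.647 in PFC, 129 ± 5.19 in microglia and 48.1 ± 1.23 in co-culture (log2 fold changes over PFC of 3.10 and 1.67, or 1.29 and 1.12 relative to the family). Rpl35 was at 3.47 ± 0.344, 29.2 ± 1.58 and 10.8 ± 1.34 CPM (SD, n = 3, 4 and 8), with log2 fold changes over PFC of 3.07 and 1.64, or 1.26 and 1.10 relative to the family. Only 4.9% of the windows of Rpl35 were unique, and 68.3% of its exon bases overlapped other genes (Arpc5l and Wdr38). Whether its counts depend on these genes was not tested. Unique windows made up 58.2% for Rplp0 and 27.8% for Rps4x.

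The paralogues are given beside their canonical partners, and whether the patterns of the pairs differ was not tested. Rpl39l, known mainly from testis, had 10 reads in all PFC controls, 293 in microglia and 12 in co-culture, or 0.0955 CPM ± 0.0382, 2.95 ± 0.626 and 0.0507 ± 0.0335. It was higher in microglia than in PFC by 4.86 on the log2 scale (SE 0.29) and than in co-culture by 5.74 (SE 0.25), on both scales, and its windows were all unique. Per kb it stayed below Rpl39 everywhere, at 3.67 against 47.6 CPM per kb in microglia. Rps27l, a target of p53, was at 5.01 ± 0.375 CPM in PFC, 58.4 ± 3.82 in microglia and 14.2 ± 0.870 in co-culture, a log2 fold change over PFC of 3.53 (SE 0.075) and 1.495 (SE 0.075), and of 1.73 and 0.95 relative to the family. Rps27 itself showed 1.47, 1.52 and 1.61 CPM and can hardly be counted, since only 4 of its 296 windows were unique.

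Rpl22, a large subunit protein, was at 80.0 CPM ± 2.26 in PFC, 186 ± 8.07 in microglia and 168 ± 4.53 in co-culture, and its paralogue Rpl22l1 at 14.7 ± 0.615, 32.9 ± 2.17 and 13.3 ± 0.971. The log2 fold changes over PFC were 1.22 in microglia and 1.07 in co-culture for Rpl22, and 1.16 and -0.15 for Rpl22l1, but relative to the family those in microglia turned to -0.59 and -0.65. Rpl36al was at 11.2, 41.5 and 17.3 CPM while Rpl36a was at 6.10, 3.70 and 6.01. Of their windows 75.1% and 14.5% were unique, so Rpl36a is the less well counted of the pair. Rpl3l, known from muscle, held 42, 7 and 19 reads in the 3 sets of controls and was at 0.403 CPM ± 0.0608 in PFC. Rpl10-ps3 and Rps27rt had 1 read each in PFC, against 79 and 56 in microglia and 88 and 107 in co-culture, with only 3.9% and 8.9% of their windows unique. Rpl10l had 0, 2 and 0 reads.

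Several canonical genes were far lower in the cultures than in PFC, and for some of them a processed pseudogene carried more reads than the gene itself. These pseudogenes are no members and were singled out after their values were seen. Rpl26, at the exit tunnel, was at 28.5 CPM ± 2.57 in PFC (25.7 to 30.7) but at 1.53 ± 0.145 in microglia and 1.68 ± 0.262 in co-culture. Gm15772, a pseudogene at chr5:3236431-3236868 (mm10) that shares 289 of the 557 windows of Rpl26, was at 0.0205 CPM in PFC, 53.0 ± 1.82 in microglia and 17.8 ± 0.791 in co-culture. The gene and its copies together were at 28.6, 54.8 and 19.6 CPM. The log2 fold change over PFC of Rpl26 was -4.22 in microglia and -4.09 in co-culture when counted alone, and 0.94 and -0.55 with the copies added.

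Rps2, at the mRNA entry channel, was at 36.2, 56.1 and 2.64 CPM in PFC, microglia and co-culture. Its copy Rps2-ps13 (chrX:52898588-52899469) was at 0.0112, 6.56 and 19.0 CPM. The log2 fold change in co-culture over PFC was -3.77 for the gene alone and -0.64 with its 48 copies added. Rpl3, near the peptidyl transferase centre, was at 15.7, 17.2 and 7.80 CPM and its copy Rpl3-ps1 (chrX:13202571-13203780, sharing 1061 of 1302 windows) at 0.115, 32.5 and 14.8 CPM. In co-culture over PFC it changed direction, from -1.01 alone to 0.51 with copies.

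For Rps7 and Rpsa the copies added to genes that were not lower in the cultures. Rps7 was at 15.8, 64.4 and 31.4 CPM, and its copy Gm6472 (chrX:152909505-152910155) had 0 reads in all 3 PFC controls, 36.4 CPM in microglia and 19.3 CPM in co-culture. Rpsa, also known as the laminin receptor, was at 1.68, 4.71 and 1.88 CPM, whereas its copy Rpsa-ps10 (chr3:150072658-150073542) was at 0.0313 CPM in PFC, 1.33 in microglia and 74.9 ± 3.18 in co-culture. With the copies, Rpsa in co-culture exceeded PFC by 5.23 on the log2 scale, against 0.15 alone. Rpl29 was at 2.72, 0.357 and 0.977 CPM and changed direction in microglia over PFC, from -2.87 to 0.47.

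**Figure D5:**
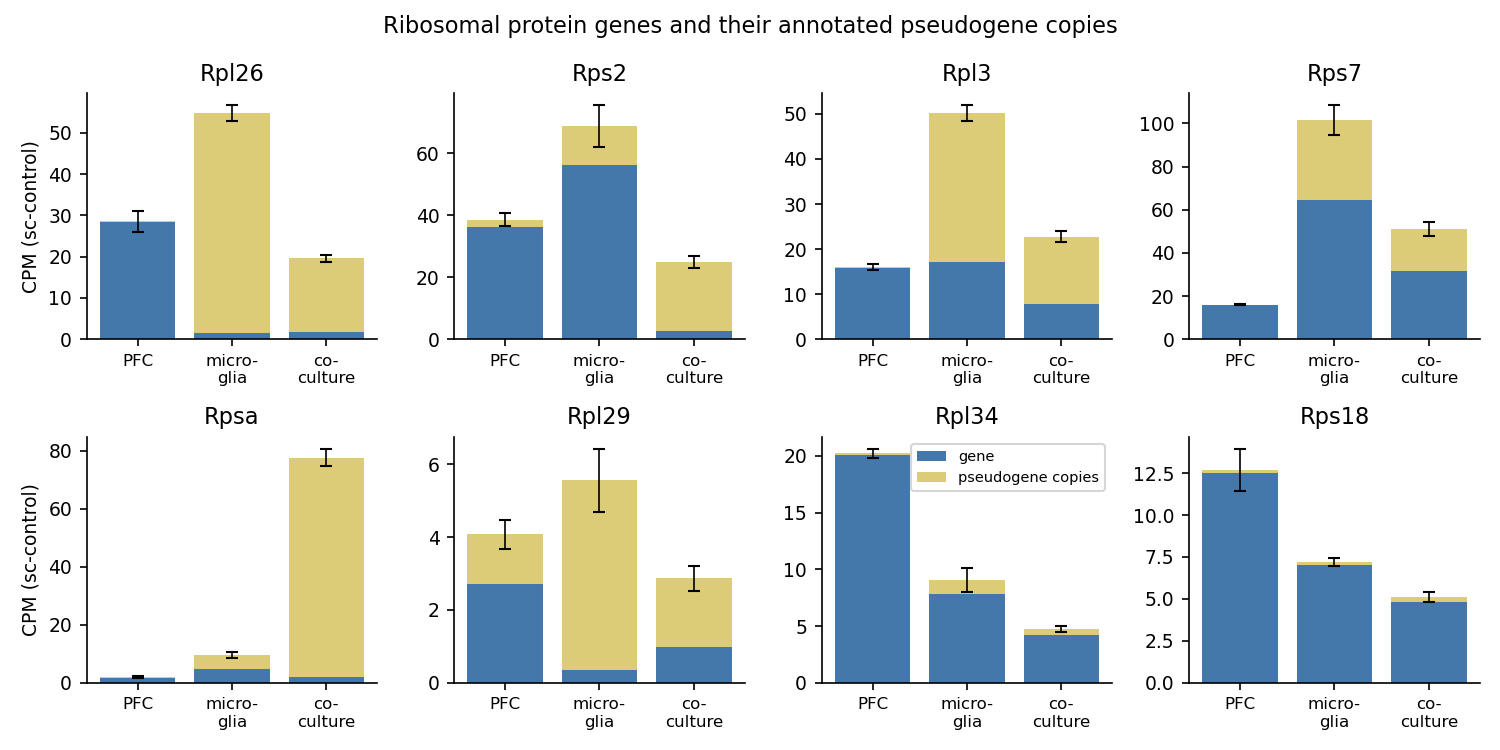
Mean CPM of 8 ribosomal protein genes (blue) and of the annotated pseudogene rows that share at least 25 windows of 50 bases with them (yellow) in sc-control libraries of PFC (n = 3), microglia (n = 4) and co-culture (n = 8); error bars are the SD of the sum. Rpl26 at 28.5 CPM in PFC gives way to its copies in both cultures (53.3 and 17.9 CPM), while Rpl34 and Rps18 are lower in the cultures with few copies counted.

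Not all low members had such a copy among the rows counted. Rpl34 was at 20.0 CPM ± 0.407 in PFC (19.8 to 20.5), 7.80 ± 0.815 in microglia (6.63 to 8.45) and 4.19 ± 0.233 in co-culture (3.93 to 4.62). The 3 ranges were apart, and the log2 fold change over PFC was -1.36 (SE 0.071) and -2.26 (SE 0.063), or -1.16 and -2.09 with its copies, which held 0.2004, 1.26 and 0.567 CPM. Rps18 was at 12.5, 7.01 and 4.80 CPM with copies at 0.181, 0.199 and 0.300 CPM. Only 13.3% of the windows of Rps18 were unique, against 62.1% for Rpl34. The annotated gene that shares the most windows with Rps18 (339 of 511) has no symbol among the counted identifiers. Whether Rps18 shared reads with it was not tested. Between the cultures, Rpl35a was higher in microglia than in co-culture by 2.198 (32.4 ± 2.30 against 7.05 ± 0.535 CPM) and Rps16 by 1.89 (39.4 ± 2.90 against 10.7 ± 1.26 CPM), and Rpl21 was lower by 2.02 (4.53 ± 0.768 against 18.4 ± 1.06 CPM), each with the same direction relative to the family and with copies added.

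All 638 pseudogene rows that share windows with a member took 0.00394% ± 0.000138 of the counts in PFC controls, 0.0282% ± 0.00120 in microglia and 0.0244% ± 0.000761 in co-culture. With their counts added to the members, 67 were called higher and 2 lower in microglia against PFC (median 1.71), 28 and 4 in co-culture against PFC (0.67) and 46 and 2 in microglia against co-culture (1.07), of 89 members tested. In those fits 26.4%, 14.9% and 24.3% of all genes were called higher and 37%, 20.5% and 35.2% lower. A row that shares windows with several members was added to each of them, so some reads counted more than once. Rps12 and Rps12-ps3, for example, received the same 20 pseudogene copies. Rps12-ps3 held 0 CPM of its own in the controls of each experiment. Through these copies it was called higher in microglia against PFC, at a log2 fold change of 3.27. Adding the copies was chosen after seeing the data. Whether these reads stem from the genes or from the pseudogenes was not tested.

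Between treatments the share of the copies was 0.00446% ± 0.000166 in anti-miR-99b PFC, above all 3 controls in 3 of 3 mice. It was 0.0277% ± 0.000487 in anti-miR-99b microglia, and 0.0256% ± 0.000962 in anti-miR-99b co-cultures, of which 5 of 7 lay above the highest control. The direction was that of the members in each case but microglia, where the member share had a ratio of 1.00 and the copies 0.982.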

How the data were processed

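Raw counts per gene were deposited by the authors in 3 tables, made from 50-base single-end polyA reads with bcl2fastq 2.20.2, FastQC 0.11.5, STAR 2.5.2b and featureCounts 1.5.1 on mm10, per the labels and the study's methods. The handling of strand and of reads with several matches is not given in the sources used here, so genes and their copies can share reads. Identifiers were given symbols and biotypes from GENCODE M21. Counts were tested with edgeR 4.0.16 (R 4.3.3, limma 3.58.1; TMM factors, filterByExpr, quasi-likelihood test, Benjamini-Hochberg) in each experiment alone, in the sc-control libraries of all 3, and over all 29 libraries for differences between effects. DESeq2 1.42.0, other scalings and filters, a RUVs factor, lane and replicate blocks and leaving out libraries were the alternatives. The study states thresholds for PFC and co-culture; an adjusted p of 0.1 and a log2 limit of 0.1 were set here for microglia. The script was tested on simulated data.

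No group held libraries that agreed within sampling noise. Named members were the 8 with the lowest p in each direction, the paralogue pairs, those with a set role, the 5 highest and 5 lowest per kb and the 5 largest changes between experiments. Rps7, Rps18 between experiments, the start sequences shown and the pseudogene copies fall outside this rule and were chosen after their values were seen. Members and lists were chosen with earlier results of these data known. The precision of CPM values reflects 21324156 to 37901110 counts a library and counting error grows for members of few reads. Some members named by the rule are not reported here.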

Additional observations from a re-analysis of the deposited data

Results flagged for a closer look

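Of 110 groups of 4 to 10 values, 7 had a highest or lowest library far from the others by Dixon's criterion, which chance gives in about 1 in 20 groups. Anti-miR-99b replicate 7 of the co-cultures had the lowest share of the family in its group, 0.392% where the other 6 libraries held 0.405% to 0.414%. Among the genes of that experiment, Rplp2 was at 58.3 CPM in anti-miR-99b replicate 12 (others 48.3 to 52.3), and Rpl22l1 was at 11.4 CPM in the same library (others 13.8 to 15.6). Rps7 was at 38.2 CPM in sc-control replicate 2 (others at most 33.6) and Rpl5 at 9.24 CPM in sc-control replicate 12 (others 7.79 to 8.46).

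In microglia, Rps7 was at 66.6 CPM in sc-control replicate 2 where the others had 54.7 to 55.5, and Rpl22 was at 163 CPM in anti-miR-99b replicate 1 where the others had 168 to 169. None of these genes was called between treatments.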

How the results depend on the processing

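In PFC 0 members were called under every alternative run, and their median log2 fold change changed sign with the family's total as library size (-0.02), with the replicate block and the length trend removed together (-0.036), and over single libraries left out (-0.0024 to 0.06). In microglia calls went from 0 to 1 without the filter on low counts or with a RUVs factor, to 3 with the replicate block, and from 0 to 3 over libraries left out, with the 3 without sc-control replicate 2. In that last fit 2.7% of all genes were called, against 0.488% in the main fit. For most alternative fits of this section the share of all genes called is not reported here. Whether added calls of members went with more calls over all genes was therefore not tested. Blocking by replicate moved the microglia median to 0.065, or 0.045 with the length trend removed as well. Each replicate block kept only libraries whose number occurs in both arms (2 numbers in PFC, 2 in microglia and 4 in co-culture). Such fits therefore rest on fewer libraries, and in microglia they left out sc-control replicate 2. In co-culture the 1 call became 2 with upper-quartile factors or without a fold limit and 4 with a RUVs factor. With DESeq2, and without the filter on low counts, Rpl34 was not called and Rpl23 was. The count became 0 with the family's total, the lane block, the replicate block, the length trend removed, both together, or copies added. Leaving out single co-culture libraries gave 0 to 2 calls, 0 without anti-miR-99b replicate 3, 7, 10 or 11 or sc-control replicate 1, 4, 5, 8 or 12, and 2 without anti-miR-99b replicate 12 or sc-control replicate 6 or 11. Leave-outs there and adding copies were chosen after seeing the data. With the family's total as library size the co-culture median was 0.00085, by construction near 0, it was 0.03 with the length trend removed and 0.02 with the replicate block as well, and the other alternatives gave 0.04 to 0.06. The cause of the other changes was not tested.

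Same-numbered libraries did not deviate together (mean r -0.089 in PFC, -0.022 in microglia and 0.017 in co-culture), so the numbers were not taken as pairs.

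Between sc-control libraries, medians for microglia against PFC, co-culture against PFC and microglia against co-culture became 1.505, 0.58 and 0.99 with upper-quartile factors, -0.19, 0.085 and -0.21 with the family's total, and 2.01, 0.77 and 1.20 with the length trend removed. Co-culture against PFC gave 0.59 with RLE factors and 0.57 with at least 10 counts in every library, and microglia against PFC 1.66 without filter, 1.45 with at least 10 counts and 1.71 with copies added. The calls under the family's total were 32, 16 and 25, and leaving out libraries gave 64 to 65, 28 to 30 and 46 to 47. With DESeq2 1 member differed in its effect between co-culture and PFC. With the family's total, Rpl22l1 (-0.65), Rpl22 (-0.59), Rps27 (-1.73) and Rpl3 (-1.67) turned negative in microglia against PFC, and Rpl22 (-1.12) and Rpl3 (-0.11) against co-culture. With copies added, Rpl26 (0.94) and Rpl29 (0.47) turned positive in microglia against PFC, Rpl3 (0.51) in co-culture against PFC and Rpl29 (0.98) in microglia against co-culture. Genes with few reads limit the depth: 66 reads of Rpl23a in all PFC controls cannot resolve small changes.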
